A study of Mus musculus with 12 samples.

Results

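Immediate early genes are transcribed within minutes of a stimulus, before any new protein is made. Here 40 such genes were followed in osteoblasts and endothelial cells of mice with or without tumor growth in bone. They were taken as a list of symbols: the Fos and Jun subunits of the transcription factor AP-1, the Egr, Nr4a and Klf factors and 4 further transcription factors, the Ier proteins, 5 MAP kinase phosphatases, 4 genes of mRNA decay, 4 growth arrest and stress genes, and 4 effectors. Each of the 40 had 1 probe set with a single gene symbol, and all 40 passed the filter on dim probe sets, among 14217 genes tested of 19937 with such a probe set.

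Gene expression was measured on 12 microarrays, 3 per group, from female C57BL/6 mice whose age the labels do not give. The groups were osteoblasts of tumor-bearing mice, osteoblasts of tumor-free mice, endothelial cells of tumor-bearing mice and endothelial cells of tumor-free mice. Tumor-bearing mice had received 500000 EO771 cells, a mammary cancer line of the same strain, into the heart, and the cells had grown in the long bones for about 2 weeks. Both gates left out cells with GFP, TR119 or CD45. The osteoblast gate further required CD51 and no SCA1 or CD31, and the endothelial gate required SCA1 together with CD31. RNA of 5000 cells was amplified for each array, and the arrays of a group are called biological replicates. The labels do not say how many mice gave an array or whether the arrays of different groups share mice. In all 4 groups the long bones were ground and digested with collagenase, dispase and DNAse for 1 hour at 37 °C before the sort. Transcripts of this class can change within that time, so levels present in the bone and levels acquired during digestion and sorting cannot be told apart here. The question of the design was how each stromal cell type differs between mice with and without tumor.

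Most immediate early genes are poised in resting cells. Growth factors, cytokines, calcium, mechanical load and stress act through the MAP kinase and cyclic AMP pathways on factors already present, chiefly serum response factor with its Elk partners, and CREB. The products then act back on the response: AP-1, Egr and Nr4a proteins drive later genes, while the phosphatases shorten MAP kinase activity and tristetraprolin and the Btg proteins speed the decay of the transcripts. In bone, parathyroid hormone and loading are classical inducers of Fos in osteoblasts, and Ptgs2 is the inducible prostaglandin synthase of that tissue. In endothelium, flow, thrombin and VEGF induce many of the same genes.

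Promoter windows were searched for the DNA elements through which early genes are known to be induced. RefSeq windows of assembly GRCm38.p6, 250 bases before to 50 after an annotated start, were matched by gene ID to 32 of the 40 genes, with 41 windows in all. The CArG box, the DNA element of serum response factor, was in 6 of these windows (14.6%, in Dusp5, Egr2 and Zfp36), against 1.63% of all 32851 windows. Of the 6, 4 are overlapping or nearby windows of Egr2, and by gene the share was 3 of 32 (9.38%), against 1.81% of all genes. The full cyclic AMP response element TGACGTCA was in 4 windows (9.76%, in Btg2, Dusp1, Maff and Ppp1r15a), against 1.79%. Its core TGACG, which every full element also holds, was in 25 windows (61.0%), against 20.8%. The EGR site GCGNGGGCG was in 10 windows (24.4%), against 5.55%. The AP-1 site TGANTCA was in 2 windows (4.88%), against 7.81%. Both strands were searched, windows of a gene can overlap, and a match is a description of letters and not of binding. The 250 bases upstream of the start are shown for 4 of the genes that hold a CArG box or the full cyclic AMP response element. Of the 4, Btg2 and Dusp1 passed in a contrast below, while Egr2 and Maff did not in the main fit. Letters run 5′ to 3′ on the gene's strand, with the CArG box (Egr2) or the cyclic AMP response element (the others) in capitals. The windows are Egr2 at chr10:67537619-67537868 (plus strand, at 1 of several annotated starts), Btg2 at chr1:134079156-134079405 (minus strand), Maff at chr15:79347270-79347519 (plus strand) and Dusp1 at chr17:26508473-26508722 (minus strand). The element begins 72, 166, 29 and 143 bases upstream of the start in Egr2, Btg2, Maff and Dusp1.
Egr2: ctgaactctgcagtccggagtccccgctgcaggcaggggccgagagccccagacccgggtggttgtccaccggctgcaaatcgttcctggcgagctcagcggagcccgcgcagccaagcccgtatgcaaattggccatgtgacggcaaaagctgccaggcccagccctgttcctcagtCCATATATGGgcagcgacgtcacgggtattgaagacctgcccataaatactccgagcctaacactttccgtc
Btg2: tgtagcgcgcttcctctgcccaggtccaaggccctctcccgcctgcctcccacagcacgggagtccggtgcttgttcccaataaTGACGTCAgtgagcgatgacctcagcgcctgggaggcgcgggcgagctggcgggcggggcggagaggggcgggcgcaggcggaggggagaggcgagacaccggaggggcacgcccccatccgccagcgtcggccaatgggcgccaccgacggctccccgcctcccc
Maff: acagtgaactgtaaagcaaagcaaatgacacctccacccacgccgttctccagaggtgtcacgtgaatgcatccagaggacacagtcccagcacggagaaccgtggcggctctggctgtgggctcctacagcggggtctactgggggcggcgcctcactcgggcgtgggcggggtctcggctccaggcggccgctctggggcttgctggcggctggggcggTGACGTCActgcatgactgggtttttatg
Dusp1: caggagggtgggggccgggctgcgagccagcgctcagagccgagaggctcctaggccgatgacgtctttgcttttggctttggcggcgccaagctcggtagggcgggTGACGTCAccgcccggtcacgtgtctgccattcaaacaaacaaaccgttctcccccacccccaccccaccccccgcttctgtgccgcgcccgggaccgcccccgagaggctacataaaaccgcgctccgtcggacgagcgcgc

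The labelled cell types were checked against their markers. In tumor-free mice 8 of 9 measured osteoblast genes were higher in osteoblasts than in endothelial arrays, and 11 of 11 endothelial genes were lower (limma, adjusted p under 0.05). In tumor-bearing mice these counts were 7 of 9 and 11 of 11, and Itgav (CD51), a gene of the osteoblast gate, was 8.85 ± 0.10 in osteoblasts and 7.93 ± 0.60 in endothelial cells (SD, n = 3) and did not pass (limma adjusted p = 0.172). In tumor-free mice Pecam1 (CD31) averaged 6.04 ± 0.40 in osteoblasts and 10.78 ± 0.05 in endothelial cells, Itgav 9.12 ± 0.44 and 7.70 ± 0.71, and Ptprc (CD45) 5.75 ± 0.61 and 5.56 ± 0.32 (mean log2 value ± SD, n = 3). All values below are log2 values of 1 probe set, array medians lay between 5.95 and 6.04, and levels are compared only within a gene. Osteoblast arrays numbered 3 stood apart in markers. In them 8 (tumor-bearing) and 7 (tumor-free) of 9 osteoblast genes were lowest of their group, as were 7 of 7 tested erythroid markers in the tumor-bearing one, with 7 (tumor-bearing) and 12 (tumor-free) of 12 pan-haematopoietic markers highest of their group there and 10 and 9 of 11 tested chondrocyte markers lowest. Over 12 pan-haematopoietic markers their medians were 6.81 (tumor-bearing) and 7.06 (tumor-free), against 5.89 to 6.07 in the other 4 osteoblast arrays, and over 15 neutrophil markers 5.79 and 7.68, against 6.10 to 6.41. Over 12 chondrocyte markers the osteoblast medians were 9.76, 10.09 and 8.16 with tumor, against 8.52, 10.21 and 8.32 without. The endothelial medians lay between 5.67 and 6.33. Of 11 tested chondrocyte markers, 8 in tumor-free and 10 in tumor-bearing mice passed as higher in osteoblast than in endothelial arrays (limma, adjusted p under 0.05).

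The immediate early genes varied together from array to array. In osteoblasts of tumor-bearing mice, 33 of the 40 genes had their lowest value in replicate 3, where 35.9% of all genes tested did. In osteoblasts of tumor-free mice, 28 of 40 were lowest in replicate 3 (28.6% of all genes), and 26 were highest in replicate 2 (29.9%). In endothelial cells of tumor-free mice, 34 of 40 were lowest in replicate 2 (39.6%). In endothelial cells of tumor-bearing mice the count was spread more evenly, with 21, 7 and 12 genes lowest in replicates 1, 2 and 3 (39.3%, 32.1% and 28.6%).

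**Figure D1:**
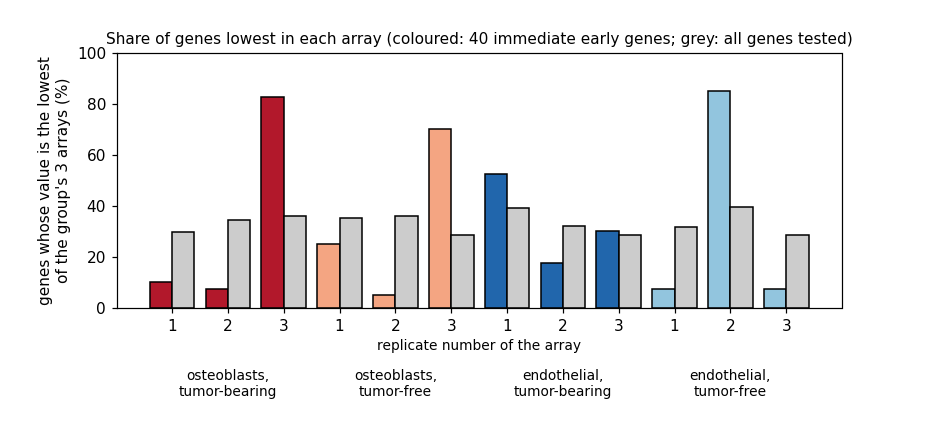
Share of genes whose value was the lowest of the 3 arrays of its group, for each array, in percent. Coloured bars are the 40 immediate early genes and grey bars all 14217 genes tested, and in 3 groups most immediate early genes were lowest in the same array: 33, 28 and 34 of 40.

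The size of these shared shifts was close to that of the group differences below. Against the mean of the other arrays of its group, the median deviation over the 40 genes was -0.50 in osteoblast tumor-bearing replicate 3, -0.28 in osteoblast tumor-free replicate 3 and -0.40 in endothelial tumor-free replicate 2, while the median over all genes tested lay between -0.04 and 0.04 in every array. The SD within a group, as a median over the 40 genes, was 0.34, 0.26, 0.18 and 0.28 in osteoblasts of tumor-bearing and tumor-free mice and endothelial cells of tumor-bearing and tumor-free mice, against 0.18, 0.21, 0.18 and 0.16 over all genes. Osteoblast arrays numbered 3 also had the marker levels given above. Of 11 tested chondrocyte markers, 10 and 11 were highest of their group in osteoblast tumor-bearing and tumor-free replicates 2. Of the 40 genes, 25 and 26 were, against 31.2% and 29.9% of all genes. Endothelial tumor-free replicate 2 had a pan-haematopoietic median of 5.96, against 5.93 and 5.92 in replicates 1 and 3. Its endothelial gene median was 10.28, against 10.25 and 10.42. Its neutrophil marker median was 6.23, against 5.79 and 6.19, and the mean 6.93, against 5.98 and 6.28. Of 12 tested neutrophil markers, 10 were highest of the group in this array. Lowest of the group in it were 6 of 9 osteoblast genes, 8 of 11 chondrocyte markers and 6 of 10 pericyte and smooth muscle markers, where 39.6% of all genes were. The part of these markers in the result was not tested. A list of 29 further early genes outside the 40 showed the same arrays: 25 of 29 were lowest in endothelial tumor-free replicate 2, 19 in osteoblast tumor-bearing replicate 3 and 14 in osteoblast tumor-free replicate 3. Of 11 heat shock chaperone genes, 10, 11 and 6 were lowest in these arrays. Of 21 genes that signal to the early genes, 5, 8 and 5 were.

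**Figure D2:**
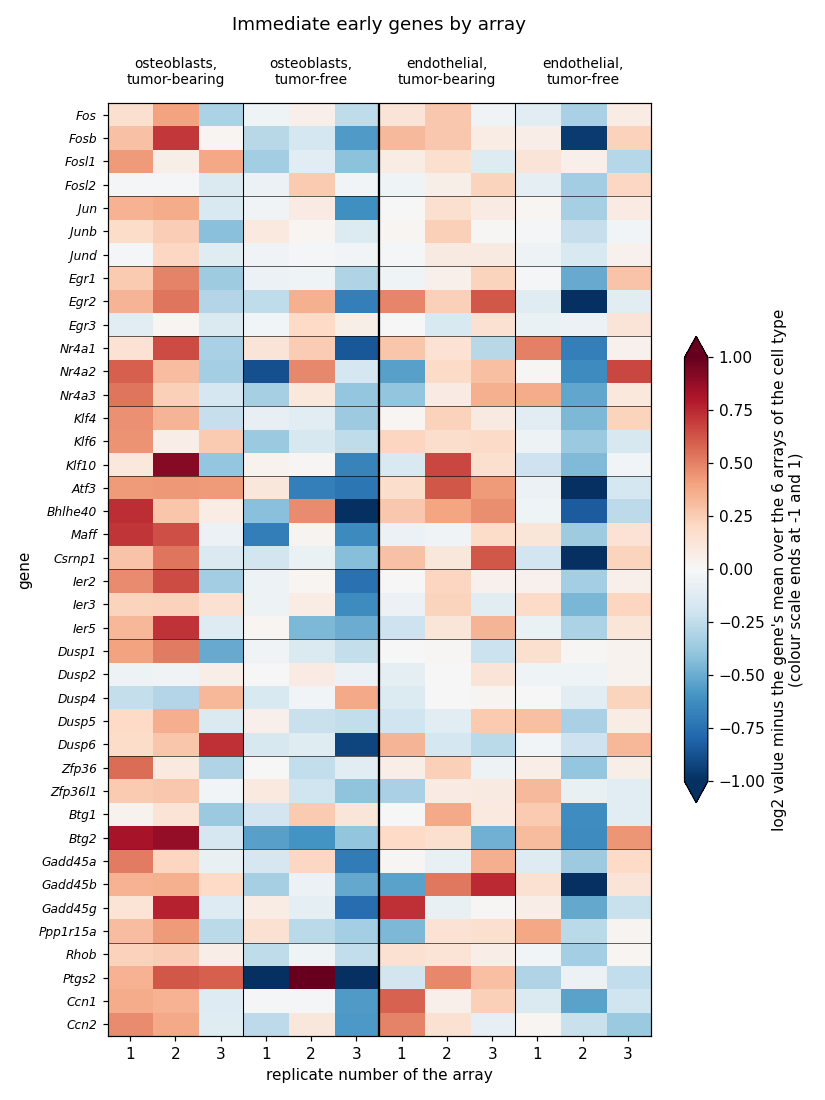
Each row is an immediate early gene and each column an array, grouped by cell type and tumor status. Colour gives the log2 value minus the gene's mean over the 6 arrays of the same cell type, with red above and blue below that mean. The column of endothelial tumor-free replicate 2, where 34 of 40 genes were lowest of their group, is mostly blue.

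In osteoblasts, 0 of the 40 genes passed the test between tumor-bearing and tumor-free mice (limma over all 14217 genes, adjusted p under 0.05), where 0.0352% of all genes passed as higher and 0.0211% as lower. At an unadjusted p under 0.05, 9 of 40 were higher, where 5.8% of all genes were, and 0 were lower, where 3.97% were. The log2 fold change, tumor-bearing over tumor-free, was positive in 35 of 40, against 46.7% of all genes. Its median was 0.39, between -0.15 (Egr3) and 1.04 (Ptgs2), and over all genes -0.02. In 9 genes the 3 arrays of tumor-bearing mice all lay above the 3 of tumor-free mice, against 6.18% of all genes, and in 0 genes below them, against 8.36%. The fold changes of single genes were thus mostly positive and mostly within the spread of 3 arrays. In sorted bulk samples, fewer cells with a transcript and less of it per cell cannot be told apart. The median stayed between 0.24 and 0.57 when any 1 array was left out, with 33 to 36 genes positive. At an unadjusted p under 0.05, 17 genes were higher when replicate 3 of the tumor-bearing mice was left out, 14 when replicate 2 of the tumor-free mice was, and 6 to 10 in the fits without another single array. Without replicate 3 of both osteoblast groups it was 9, with 36 genes positive and a median of 0.44. Neutrophil, erythroid and B cell markers had negative medians in the same contrast. Other blood-lineage lists had medians nearer 0: -0.03 for pan-haematopoietic, -0.02 for macrophage, -0.01 for megakaryocyte and -0.11 for osteoclast markers. Of these lists 5 of 12, 4 of 9, 2 of 5 and 1 of 6 tested markers were positive. Of 12 tested neutrophil markers 1 was positive (median -0.75, 1 lower at an unadjusted p under 0.05), of 7 erythroid markers 1 was (median -0.52, 3 lower), and of 7 B cell markers 1 was (median -0.49, 3 lower), while 0 passed (limma). The median level by array over the 9 B cell markers with a probe set was 5.52, 5.96 and 6.00 in tumor-bearing mice, against 6.10, 6.16 and 6.59 in tumor-free mice, and over the 8 erythroid markers with one 6.57, 6.58 and 6.28, against 6.88, 6.66 and 6.75. Of 11 tested chondrocyte markers, 9 were positive in this contrast (median 0.08) and 0 passed (limma). At an unadjusted p under 0.05, 1 of them was higher, Sox9 (1.01), and 0 were lower. The part of these marker lists in the result was not tested.

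**Figure D3:**
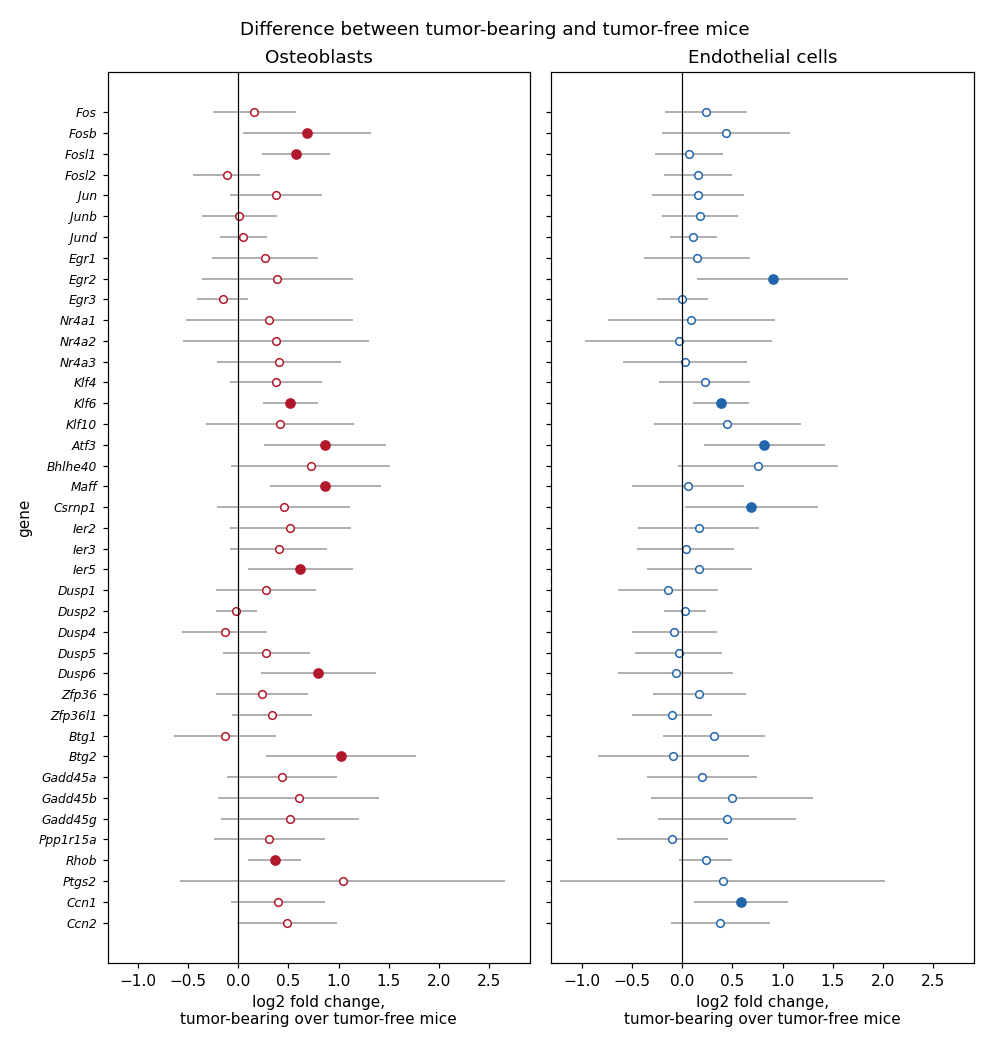
Log2 fold change of each immediate early gene, tumor-bearing over tumor-free mice, with its 95% confidence interval from limma, in osteoblasts (left) and endothelial cells (right). Filled points have an unadjusted p under 0.05 (9 genes in osteoblasts and 5 in endothelial cells), and 0 genes passed after adjustment.

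Among the AP-1 subunits, the larger values were those of Fosb and Fosl1. Fosl1, which encodes Fra-1, a Fos protein with a role in osteoblast matrix production, had osteoblast values of 7.51, 7.14 and 7.47 in tumor-bearing mice, against 6.74, 6.98 and 6.68 in tumor-free mice. Fosb, whose splice form delta-FosB raises bone formation in mice, had 10.44, 10.86 and 10.17 in tumor-bearing mice, against 9.87, 9.97 and 9.58 in tumor-free mice. In both genes all arrays of tumor-bearing mice lay above those of tumor-free mice. The log2 fold changes were 0.58 ± 0.15 (SE) for Fosl1 and 0.68 ± 0.29 for Fosb, and neither passed (limma adjusted p = 0.280 and 0.482). Fos itself had 8.25, 8.49 and 7.78 in tumor-bearing mice and 8.05, 8.14 and 7.84 in tumor-free mice, and Jun had 11.01, 11.03 and 10.51, against 10.62, 10.74 and 10.04. The groups overlapped in both. The 95% confidence intervals of the log2 fold change ran from -0.25 to 0.57 for Fos and from -0.08 to 0.84 for Jun. Junb, a weaker activator than Jun, had 8.02, 8.08 and 7.42 in tumor-bearing mice, against 7.93, 7.86 and 7.70 in tumor-free mice, and Jund 8.04, 8.26 and 7.93, against 8.01, 8.04 and 8.02. Both overlapped and differed by 0.01 (-0.36 to 0.39) and 0.05 (-0.18 to 0.29), and Fosl2, which encodes Fra-2, by -0.12.

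Of the 9 Egr, Nr4a and Klf genes none passed, and Klf6 alone had an unadjusted p under 0.05. Klf6, a zinc finger factor induced by injury, had 9.76, 9.38 and 9.57 in tumor-bearing mice, against 8.94, 9.15 and 9.05 in tumor-free mice. Its arrays did not overlap, and its unadjusted p of 0.00165 was the smallest of the 40 genes in this contrast (log2 fold change 0.52 ± 0.12 SE, limma adjusted p = 0.211). Klf4 and Klf10, an early target of TGF-beta, had 0.38 and 0.42. Egr1 had 9.90, 10.13 and 9.28 in tumor-bearing mice and 9.59, 9.60 and 9.34 in tumor-free mice, with overlap and a log2 fold change of 0.27 ± 0.24. Egr2 had 0.39 and Egr3 -0.15. The orphan nuclear receptors Nr4a1, Nr4a2 and Nr4a3 had 0.31, 0.38 and 0.41, each with SE between 0.28 and 0.42.

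The stress-linked factors Atf3, Maff and Bhlhe40 had some of the larger log2 fold changes. Atf3, a factor of the CREB family induced by many stresses, had 10.19, 10.20 and 10.19 in tumor-bearing mice, against 9.87, 9.08 and 9.04 in tumor-free mice, so that its arrays did not overlap. Maff, a small Maf protein, had 9.16, 9.09 and 8.38, against 7.75, 8.47 and 7.81, and overlapped through replicate 3 of the tumor-bearing and replicate 2 of the tumor-free mice. Their log2 fold changes were 0.86 ± 0.27 and 0.87 ± 0.25 (SE), and neither passed (limma adjusted p = 0.350 and 0.303). Bhlhe40, a repressor that responds to hypoxia and the clock, had 0.72 ± 0.36 with overlapping arrays, and Csrnp1 had 0.45. The log2 fold changes of the Ier genes were 0.52 (Ier2), 0.40 (Ier3) and 0.62 (Ier5), and none passed. Of these Ier5, a partner of heat shock factor, had 7.74, 8.12 and 7.27, against 7.42, 6.95 and 6.91, overlapped and did not pass (limma adjusted p = 0.433). Ier3 had 9.37, 9.38 and 9.30 in tumor-bearing mice, against 9.10, 9.22 and 8.52 in tumor-free mice, without overlap.

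The feedback genes differed among themselves. Dusp6, the cytoplasmic phosphatase of ERK, had 7.36, 7.45 and 7.91 in tumor-bearing mice, against 7.02, 7.06 and 6.26 in tumor-free mice. Btg2, an antiproliferative cofactor of the deadenylase complex, had 10.25, 10.31 and 9.26, against 8.88, 8.83 and 9.03. Both were without overlap, at 1.74-fold and 2.03-fold (log2 fold changes 0.80 ± 0.26 and 1.02 ± 0.34 SE, limma adjusted p = 0.354 and 0.363). In Dusp6 the highest value was that of replicate 3 of the tumor-bearing mice, the array in which most other genes of the list were lowest, and its log2 fold change was 0.54 without tumor-free replicate 3 and 0.37 without replicate 3 of both osteoblast groups. The nuclear phosphatases differed less, by 0.28 in Dusp1, -0.02 in Dusp2, -0.13 in Dusp4 and 0.28 in Dusp5. Dusp4 averaged 5.52 over the 12 arrays, near the 40th percentile of all probe sets (5.51 to 5.61), and lay above it in 5 of 12. Zfp36 (tristetraprolin) had 0.24, its relative Zfp36l1 0.33 and Btg1 -0.13.

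The 4 growth arrest and stress genes and the 4 effectors all had positive values. Gadd45b, a stress sensor upstream of p38, had 9.42, 9.42 and 9.27 in tumor-bearing mice, against 8.74, 9.01 and 8.56 in tumor-free mice, without overlap (0.60 ± 0.36 SE). The SE comes from all 4 groups, and the SD of this gene was 0.69 and 0.67 in endothelial cells of tumor-bearing and tumor-free mice. Gadd45a, Gadd45g and Ppp1r15a, which restarts translation after stress, had 0.44, 0.52 and 0.31. Rhob, a small GTPase of endosomes, had 8.60, 8.61 and 8.43, against 8.11, 8.32 and 8.11, a small difference without overlap (0.36 ± 0.12 SE, limma adjusted p = 0.361). Ccn1 and Ccn2, secreted matricellular proteins, had 0.40 and 0.48. Ptgs2 had 10.12, 10.40 and 10.37 in tumor-bearing mice, against 7.79, 11.52 and 8.48 in tumor-free mice. Its highest osteoblast value was thus a tumor-free one, in replicate 2, the array with the highest chondrocyte marker median (10.21), whose part in this value was not tested. The log2 fold change of 1.04 ± 0.73 (SE) did not pass (limma adjusted p = 0.676), and without that array it was 2.17 and passed (adjusted p = 0.0170).

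**Figure D4:**
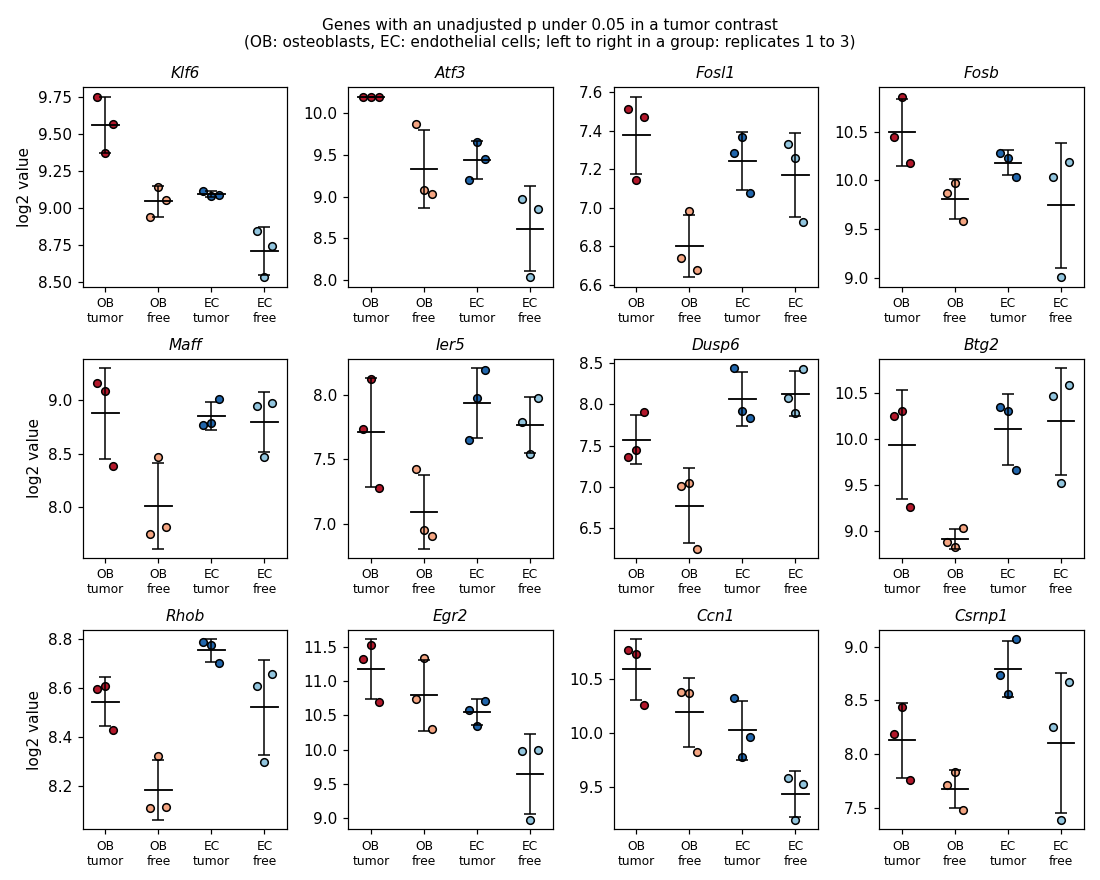
Log2 values of the 12 genes with an unadjusted p under 0.05 in a tumor contrast, by group, with each array as a point and the mean and SD (n = 3) as lines. Klf6, Atf3 and Rhob were without overlap between tumor-bearing and tumor-free mice in both cell types. Fosb, Fosl1, Btg2 and Dusp6 were so in osteoblasts only, and Egr2 and Ccn1 in endothelial cells only.

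In endothelial cells, 0 of the 40 genes passed either (limma, adjusted p under 0.05), where 0.0141% of all genes passed as higher and 0% as lower. At an unadjusted p under 0.05, 5 genes were higher, where 2.62% of all genes were, and 0 were lower, where 1.97% were. The log2 fold change was positive in 32 of 40, against 51.4% of all genes, with a median of 0.17 and a range from -0.14 (Dusp1) to 0.90 (Egr2). The median over all genes was 0.01. In 7 genes the arrays of tumor-bearing mice all lay above those of tumor-free mice, against 5.63% of all genes, and in 0 below, against 4.87%. These counts rested on endothelial tumor-free replicate 2, the array in which 34 of the 40 genes were lowest. Without it 26 genes were positive, the median was 0.06, and 1 gene was higher at an unadjusted p under 0.05. Without any other array, 30 to 35 genes were positive, with medians from 0.14 to 0.28 among fits that left out an endothelial array. Without tumor-bearing replicates 1 or 3, 3 genes were higher at an unadjusted p under 0.05. Of 10 markers of pericytes and smooth muscle, 8 were positive in the same contrast (median 0.08). Below an unadjusted p of 0.05 and with their arrays apart lay 3 of them, Rgs5 (1.37), Acta2 (1.12) and Pdgfrb (0.59), of which none passed (limma adjusted p of at least 0.175). The median level over the 10 markers was 6.68, 6.70 and 6.77 in tumor-bearing mice, against 6.10, 6.13 and 6.36 in tumor-free mice. Their part in the result was not tested.

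The larger endothelial values were those of transcription factor genes and of Ccn1. Egr2 had 10.59, 10.34 and 10.72 in tumor-bearing mice, against 9.98, 8.97 and 9.99 in tumor-free mice. Atf3 had 9.20, 9.65 and 9.45, against 8.97, 8.03 and 8.85, and Klf6 had 9.12, 9.08 and 9.09, against 8.85, 8.53 and 8.75. In these 3 genes the groups did not overlap, and in each the lowest value was that of tumor-free replicate 2. The log2 fold changes were 0.90 ± 0.34, 0.82 ± 0.27 and 0.39 ± 0.12 (SE), and none passed (limma adjusted p of at least 0.847). Without that array they were 0.56, 0.53 and 0.30. Ccn1, an angiogenic matricellular protein, had 10.32, 9.78 and 9.96 in tumor-bearing mice, against 9.59, 9.19 and 9.52 in tumor-free mice, also without overlap (0.59 ± 0.21 SE, adjusted p = 0.961). Csrnp1 had 8.74, 8.56 and 9.07, against 8.25, 7.38 and 8.67, with overlap (0.69 ± 0.30 SE), and without replicate 2 of the tumor-free mice its log2 fold change was 0.33. Arrays were also apart in Bhlhe40 (0.76), Rhob (0.23) and Junb (0.18).

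None of the AP-1 subunits passed in endothelial cells, and Junb alone had its arrays apart. Fos had 8.30, 8.45 and 8.14 in tumor-bearing mice, against 8.07, 7.85 and 8.25 in tumor-free mice, and Jun 11.01, 11.16 and 11.09, against 11.03, 10.67 and 11.09. Fosb had 10.28, 10.23 and 10.03, against 10.03, 9.0 and 10.19 in replicates 1 to 3. The groups overlapped in all 3. The 95% confidence intervals were -0.17 to 0.65 for Fos, -0.30 to 0.61 for Jun and -0.20 to 1.07 for Fosb. Junb had 7.96, 8.18 and 7.95, against 7.93, 7.71 and 7.91, and Jund 8.11, 8.21 and 8.21, against 8.07, 7.97 and 8.16. Egr1 had 9.45, 9.54 and 9.71, against 9.48, 8.98 and 9.78 (log2 fold change 0.15 ± 0.24 SE). Fosl1 (0.07), Maff (0.06), Btg2 (-0.09) and Dusp6 (-0.07), among the larger differences of the osteoblasts, were close to 0 here. Of the 8 negative values of the list, 4 were among the 5 phosphatase genes, which lay between -0.14 and 0.03.

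Whether the tumor contrast differed between the cell types was tested as the difference of the log2 fold changes, osteoblasts minus endothelial cells. Of the 40 genes, 0 passed (limma adjusted p of at least 0.761), where 0.0141% of all genes passed as higher and 0.0141% as lower. At an unadjusted p under 0.05, 4 genes were higher, where 3.52% of all genes were, and 0 were lower, where 2.95% were. These were Btg2 (1.11 ± 0.48 SE), Dusp6 (0.86 ± 0.37), Maff (0.81 ± 0.35) and Fosl1 (0.51 ± 0.22). The difference was positive in 27 of 40, against 47% of all genes, with a median of 0.13. Over the 12 fits that left out 1 array, the median lay between 0.05 and 0.33, with 21 to 32 genes positive, and 0 to 4 genes had an unadjusted p under 0.05. The number was 0 without osteoblast tumor-free replicate 3 or endothelial tumor-free replicate 1, and 1 without osteoblast tumor-bearing replicate 1, endothelial tumor-bearing replicate 3 or endothelial tumor-free replicate 3. It was 2 without osteoblast tumor-bearing replicate 2, osteoblast tumor-free replicate 1 or endothelial tumor-bearing replicates 1 or 2. The number was 1 with quantile normalization and 2 with robust, trended eBayes. The opposite order was largest in Egr2 (-0.51 ± 0.48) and Btg1 (-0.44 ± 0.32).

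Osteoblasts and endothelial cells were then compared with each other. The osteoblast arrays also had the higher chondrocyte marker levels given above, whose part in these comparisons was not tested. In tumor-free mice, 4 of 40 were higher in osteoblasts than in endothelial cells, where 5.38% of all genes were, and 4 were lower, where 7% were (limma, adjusted p under 0.05). The arrays of osteoblasts all lay above those of endothelial cells in 7 genes, against 13.6% of all genes, and below in 8, against 15.8%. The 8 genes that passed are 4 of 40 in each direction, a share of 10%. Ptgs2 had the largest value. It had 7.79, 11.52 and 8.48 in osteoblasts and 5.46, 5.70 and 5.52 in endothelial cells, where it lay near the 40th percentile of all probe sets (5.51 to 5.61). The log2 fold change was 3.70 ± 0.73 (SE, adjusted p = 0.00691). Gadd45b had 8.74, 9.01 and 8.56 in osteoblasts, against 7.87, 6.70 and 7.85 in endothelial cells. Ccn1 had 10.37, 10.37 and 9.82, against 9.59, 9.19 and 9.52, and Ccn2, a target of TGF-beta and YAP, had 8.87, 9.24 and 8.56, against 8.20, 7.95 and 7.81. All 3 were without overlap, with log2 fold changes of 1.30, 0.75 and 0.90 (limma adjusted p = 0.0417, 0.0416 and 0.0238).

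The 4 genes that passed as lower in osteoblasts of tumor-free mice were Dusp6, Dusp1, Btg2 and Zfp36l1. Dusp6 had 7.02, 7.06 and 6.26 in osteoblasts, against 8.07, 7.89 and 8.43 in endothelial cells. Dusp1, the phosphatase of p38 and JNK that glucocorticoids also induce, had 9.76, 9.65 and 9.56, against 10.71, 10.56 and 10.58. Btg2 had 8.88, 8.83 and 9.03, against 10.46, 9.52 and 10.59, and Zfp36l1, an mRNA decay factor, had 8.86, 8.56 and 8.35, against 9.49, 9.10 and 9.06. In each of the 4 the osteoblast arrays all lay below the endothelial ones. The log2 fold changes were -1.35 for Dusp6, -0.96 for Dusp1, -1.27 for Btg2 and -0.63 for Zfp36l1 (limma adjusted p = 0.00578, 0.0178, 0.0325 and 0.0455). Klf4, a flow-induced endothelial factor, was -0.58 without overlap and did not pass (adjusted p = 0.101). Fos, Junb, Jund and Egr1 differed by -0.05, -0.02, -0.04 and 0.09, the widest 95% interval being that of Egr1 (-0.43 to 0.62), and Jun by -0.46 (limma adjusted p = 0.209). The contrasts of osteoblasts by tumor and of cell types in tumor-free mice share the tumor-free osteoblasts. Beside those values, the log2 fold change between osteoblasts of tumor-bearing and tumor-free mice, which did not pass, was 1.02 in Btg2 and 0.80 in Dusp6.

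Several of these calls lay close to the threshold. Apart from a looser threshold, 23 alternatives were run. Dusp6 passed in 23 of them, Ptgs2 in 22, Dusp1 in 20, Ccn2 in 19, Btg2 in 17, Ccn1 in 13, Gadd45b in 7 and Zfp36l1 in 6. Ptgs2 did not pass with only the groups compared (limma adjusted p = 0.0560), and its log2 fold change was 2.57 without osteoblast tumor-free replicate 2 and 4.44 without replicate 1. Dusp1 did not pass without osteoblast tumor-free replicate 3 or endothelial tumor-free replicates 1 or 3 (adjusted p = 0.0536, 0.0664 and 0.0507), with log2 fold changes of -1.01 to -0.91 over the 23 alternatives. Ccn2 did not pass without osteoblast tumor-free replicates 1 or 2 (0.0580 and 0.0798) or endothelial tumor-free replicates 2 or 3 (0.0738 and 0.0885), with 0.73 to 1.07. Btg2 did not pass without any of the osteoblast tumor-free arrays (0.0615 to 0.0851) or endothelial tumor-free replicates 1 or 3, where it was -1.14 and -1.08 (0.121 in both). Ccn1 was lost in 8 of 12 fits that left out 1 array (adjusted p = 0.0520 to 0.148) and passed without osteoblast tumor-free replicate 3, osteoblast tumor-bearing replicate 3 or endothelial tumor-bearing replicates 1 or 2. Gadd45b was lost in 10 of 12 such fits (0.0514 to 0.132) and passed without endothelial tumor-bearing replicates 1 or 3. Zfp36l1 was lost in 9 of 12 (0.0565 to 0.171) and passed without osteoblast tumor-bearing replicate 3, osteoblast tumor-free replicate 1 or endothelial tumor-bearing replicate 1. The log2 fold changes of Ccn1, Gadd45b and Zfp36l1 lay between 0.63 and 0.94, 0.91 and 1.49, and -0.76 and -0.49 over the 23 alternatives. Some of their calls were lost without an array of tumor-bearing mice, which takes no part in the fold change but enters the shared spread. The direction was the same in these 8 genes under each of the 23 alternatives.

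**Figure D5:**
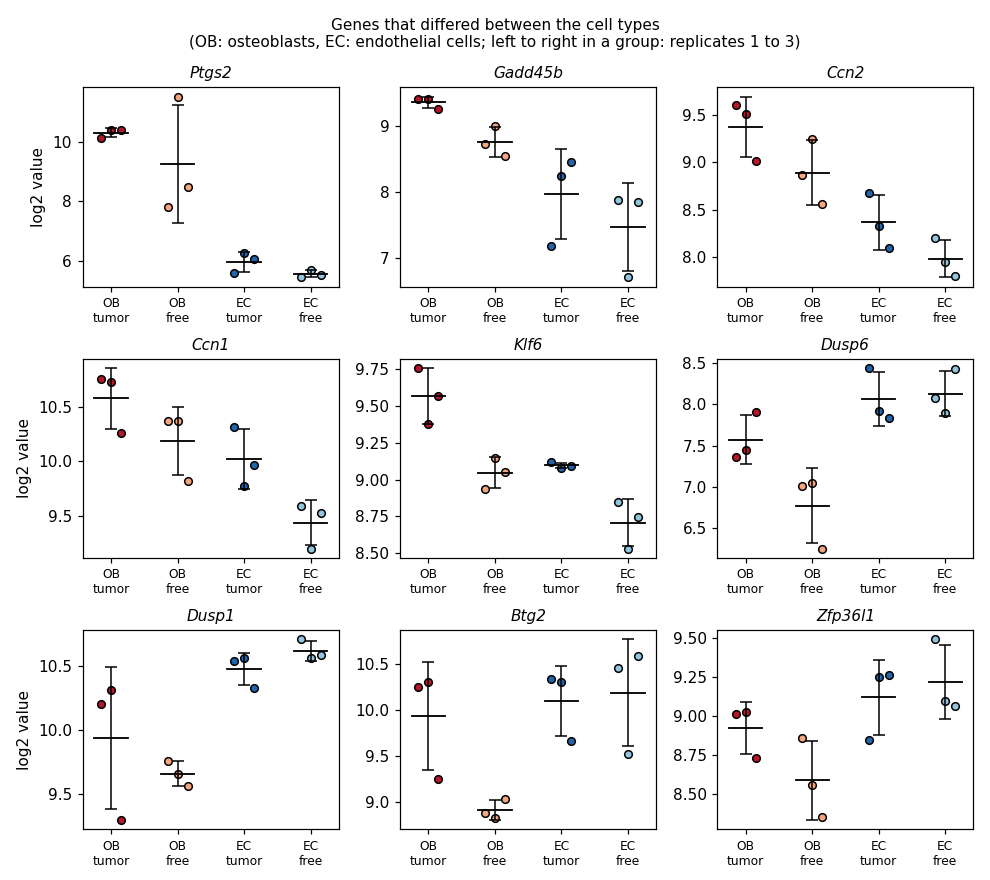
Log2 values of the 9 genes that passed between osteoblasts and endothelial cells in tumor-free or tumor-bearing mice, by group, with each array as a point and the mean and SD (n = 3) as lines. Ptgs2 was between 7.79 and 11.52 in the 6 osteoblast arrays and between 5.46 and 6.24 in the 6 endothelial arrays.

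In tumor-bearing mice 4 of 40 genes were higher in osteoblasts than in endothelial cells, where 4.89% of all genes were, and 0 were lower, where 5.68% were (limma, adjusted p under 0.05). At an unadjusted p under 0.05 there were 6 higher, where 10.8% of all genes were, and 4 lower, where 11.9% were. The arrays of osteoblasts all lay above those of endothelial cells in 5 genes, against 12.1% of all genes, and below in 6, against 16%. Ptgs2 had 10.12, 10.40 and 10.37 in osteoblasts, against 5.58, 6.24 and 6.06 in endothelial cells, a log2 fold change of 4.34 ± 0.73 (SE, adjusted p = 0.00315), and passed in 23 of 23 alternatives. Gadd45b had 9.42, 9.42 and 9.27, against 7.18, 8.25 and 8.47, and Ccn2 had 9.60, 9.51 and 9.01, against 8.68, 8.33 and 8.10. Klf6 had 9.76, 9.38 and 9.57, against 9.12, 9.08 and 9.09. The log2 fold changes were 1.40, 1.01 and 0.47 (limma adjusted p = 0.0330, 0.0158 and 0.0353), all without overlap. Gadd45b, Ccn2 and Klf6 passed in 15, 19 and 12 of 23 alternatives. Klf6 did not pass without tumor-bearing osteoblast replicates 1 or 3 (adjusted p = 0.124 and 0.0814), the tumor-bearing endothelial replicates 1, 2 or 3 (0.0795, 0.0955 and 0.0883) or endothelial tumor-free replicate 3 (0.0519). Gadd45b did not pass without osteoblast replicates 1, 2 or 3 (0.0909, 0.0898 and 0.0666) or endothelial replicates 1 or 2 of tumor-bearing mice (0.0941 and 0.0529). Ccn2 did not pass without osteoblast replicates 1 or 2 (0.0630 and 0.0578) or endothelial replicates 2 or 3 of tumor-bearing mice (0.0516 and 0.0617). The feedback genes Dusp6 (-0.49), Dusp1 (-0.54), Btg2 (-0.17) and Zfp36l1 (-0.19) did not pass here. That the cell types differ in these 4 genes by another amount in mice with tumor was not shown, since the difference of the contrasts did not pass (adjusted p between 0.761 and 0.862).

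Genes around the list were counted from further lists. Shares over all genes hold for the counts here and in the next paragraph. At an unadjusted p under 0.05, 5.8% were higher and 3.97% lower in the osteoblast tumor contrast, and 2.62% and 1.97% in the endothelial one. Positive were 46.7% and 51.4%, and 0.0352% and 0.0141% passed as higher. Of 21 measured genes that signal to early genes, 0 passed in the osteoblast tumor contrast (limma), with 3 higher and 2 lower at an unadjusted p under 0.05, 14 positive and a median of 0.19. The p38 target kinase gene Mapkapk2 had 1.08, the coactivator gene Wwtr1 0.70 and the Srf partner gene Elk1 -0.38, and none of them passed. In endothelial cells 0 passed, with 1 higher unadjusted (Srf, 0.32) and 14 positive. With the cell types compared in tumor-free mice, 1 passed as higher in osteoblasts (Egfr, 1.60), where 5.38% of all genes did, and 3 as lower, where 7% did. Among those lower were the Srf partner gene Elk3 (-2.07) and the cyclic AMP response modulator gene Crem (-1.75). Egfr, Elk3 and Crem passed in 23 of 23 alternatives.

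Of 29 other early genes, 28 were positive in the osteoblast tumor contrast with a median of 0.35. Myc passed (10.32 ± 0.20 with tumor and 8.89 ± 0.37 without, SD, n = 3, limma adjusted p = 0.0415). Myc passed in 9 of 23 alternatives, with adjusted p from 0.0201 to 0.458, and among fits without 1 array it passed only without osteoblast tumor-free replicates 2 or 3, while its log2 fold change lay between 1.13 and 1.59. The unadjusted p was under 0.05 in 8 genes, all higher, among them the repressor gene Nfil3 (1.33) and the kinase gene Plk2 (0.93). In endothelial cells 22 of 29 were positive with a median of 0.13, 0 passed and 2 were higher unadjusted, Errfi1, a feedback inhibitor of the EGF receptor (0.84), and Srf. Of 25 feedback and AP-1 target genes, 18 were positive in osteoblasts (median 0.41), 0 passed, 9 were higher and 1 was lower unadjusted, and Inhba (1.91), Dusp10 (1.02) and Gem (1.31) had the smallest p. In endothelial cells 15 were positive (median 0.06), and the collagenase gene Mmp13 passed (2.18, limma adjusted p = 0.00124), as it did in 21 of 23 alternatives, those without 1 array included. Osteoblasts of tumor-bearing mice averaged 12.13 ± 0.09 for Mmp13, and those of tumor-free mice 12.16 ± 0.13 (SD, n = 3). The osteoblast gene Ibsp had 1.29 in the same endothelial contrast (unadjusted p = 0.00223 and adjusted p = 0.611, limma). It was the only 1 of 9 tested osteoblast genes with an unadjusted p under 0.05 there. Of the 9, 7 were positive, with a median of 0.06. The part of Ibsp and of the pericyte markers given above in the Mmp13 call was not tested. Of 11 heat shock chaperone genes, 11 were positive in osteoblasts (median 0.55), with 0 past and 7 higher unadjusted, led by Hspd1 (0.68), Dnaja1 (0.55) and Hsph1 (1.27). In endothelial cells 8 of 11 were positive, with a median of 0.05 and 0 at an unadjusted p under 0.05.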

How the data were processed

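The 12 arrays are Affymetrix arrays whose probe sets a platform annotation names. The deposited log2 values were made by the authors with the package affy, per the submitters' processing notes, whose version and summary method were not found in those notes. The authors' normalization was kept. Per the labels' protocols the RNA was amplified from few cells, which can distort proportions of transcripts. The number of arrays limits the precision. Of 34760 probe sets, 21640 had 1 gene symbol, and 21553 of these were matched by Entrez number to a RefSeq table of GRCm38.p6 for current symbols. The brightest probe set of a gene was used, which left 19937 genes, and a gene was tested if above its array's 40th percentile in at least 3 of 12 arrays (14217 genes).

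Groups came from the sample titles. The linear model had a term for each group and used the 12 arrays together (limma 3.58.1, R 4.3.3, eBayes with prior degrees of freedom 2.36), with two-sided p-values adjusted by Benjamini-Hochberg over all genes tested and a threshold of 0.05. P-values measure the spread between arrays the labels call biological replicates. The steps were tested on simulated data. The genes, lists and rules for naming were chosen with earlier results of these data known. All 40 genes are named, with values per array for those that passed, those with an unadjusted p under 0.05 in a tumor contrast, and Fos, Fosb, Jun, Junb, Jund and Egr1, and up to 3 genes per further list by smallest p. Ier3 was given by array after its values were seen.

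As alternatives, arrays were quantile normalized or centred on their medians, the filter was dropped or set at the 60th percentile, probe sets of a gene were averaged, and eBayes was run robustly with a trend. Others were array weights, only the groups compared, a replicate block, a threshold of 0.1, each array left out, and osteoblast arrays numbered 3 left out. A fit that also left out endothelial tumor-free replicate 2 was added after the data were seen. The labels do not say whether equal replicate numbers pair arrays. Deviations from the group means correlated between -0.08 and 0.07 over genes in the 18 same-numbered pairs. With 3 arrays per group this cannot decide whether same-numbered arrays share mice or a sort. Both osteoblast arrays numbered 3 stood apart in the markers given above.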

Additional observations from a re-analysis of the deposited data

How the results depend on the processing

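The count of the 40 genes that passed was 0 in the tumor contrast of endothelial cells and in the difference of the tumor contrasts under every alternative run. In the tumor contrast of osteoblasts it was 0 except without tumor-free replicate 2, where 1 gene, Ptgs2, passed. In tumor-free mice the 8 genes that passed between the cell types became 5 without a filter, 4 with only the groups compared and 5 with the replicate block, and ranged from 2 to 10 when 1 array was left out. In tumor-bearing mice the 4 genes became 2 with the replicate block and ranged from 1 to 4 when 1 array was left out. Fewer arrays leave fewer degrees of freedom in these fits. With the replicate block, the genes at an unadjusted p under 0.05 became 1 in the difference of tumor contrasts, where there were 4, and 2 among those lower in osteoblasts of tumor-bearing mice, where there were 4. Whether same-numbered arrays share mice or a sort is not known from the labels. Median log2 fold changes over the 40 genes moved by less than 0.257, the SD of that median between arrays of a group, under every alternative. In the cell type contrast of tumor-bearing mice the median was -0.08, and among fits without 1 array it ranged from -0.14 to 0.08, so that it has no settled sign. Over all genes, the 8 that passed in osteoblasts by tumor became 5 with quantile normalization, 1 with array weights, 0 with only the groups compared, 1 with the replicate block, 45 without the osteoblast arrays numbered 3, 21 at a threshold of 0.1, and 1 to 25 when 1 array was left out. It was 23 when endothelial tumor-free replicate 2 was left out together with both osteoblast arrays, a setting chosen after seeing the data. The 2 in endothelial cells became 0 in that setting and 2 to 6 when 1 array was left out. The 4 in the difference became 1 with the block, 8 without the osteoblast arrays numbered 3, and 0 to 7 when 1 array was left out.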
